A study of Rattus norvegicus with 6 samples.

Results

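Brush border peptidases are enzymes anchored in the outer membrane of the microvilli of kidney proximal tubule cells. The 8 genes described here, Ace, Anpep, Enpep, Mme, Dpp4, Mep1a, Mep1b and Xpnpep2, encode such enzymes. They were chosen as a named enzyme group with earlier results of these data known. They were represented by 15 of the 61657 non-control probes, namely every probe whose transcript accession RefSeq assigns to 1 of these symbols. For comparison, 15278 symbols were matched in all. The tissue was kidney cortex from male Sprague-Dawley rats that were 5 weeks old when bought. For 4 weeks 3 rats received corn oil alone, and 3 received anthraquinone, a tricyclic quinone, at 1000 mg/kg/day. RNA from each rat was labelled with Cy3 and read on a separate 1-colour Agilent array.

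The catalytic domains of these peptidases face the tubular fluid, where they cut filtered peptides into amino acids and small peptides that transporters then take up. Several also make or destroy peptide hormones, among them angiotensins, kinins and natriuretic peptides. The proximal tubule is one of the tissues richest in them, but Ace is also made by endothelial cells, Mme by podocytes, Dpp4 by lymphocytes and Anpep by myeloid cells. In whole cortex, fewer cells of a type and less RNA per cell cannot be told apart.

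Promoter windows are printed for 4 of the genes, chosen by their expression differences. Any link between these windows and expression was not tested. Ace, Anpep and Mep1b had the largest differences between the groups, all negative, and Dpp4 had differences near 0. Each window runs from 250 bases before to 50 bases after the gene start of the RefSeq promoter table (rat build GRCr8), 5′ to 3′ on the gene's strand. They lie at chr10:91409879-91410178 on the + strand (Ace), chr1:143195052-143195351 on the - strand (Anpep), chr18:12640791-12641090 on the + strand (Mep1b) and chr3:67452373-67452672 on the - strand (Dpp4). Capitals mark matches, on either strand, to GCGTG, which is the core of the xenobiotic response element.
Ace: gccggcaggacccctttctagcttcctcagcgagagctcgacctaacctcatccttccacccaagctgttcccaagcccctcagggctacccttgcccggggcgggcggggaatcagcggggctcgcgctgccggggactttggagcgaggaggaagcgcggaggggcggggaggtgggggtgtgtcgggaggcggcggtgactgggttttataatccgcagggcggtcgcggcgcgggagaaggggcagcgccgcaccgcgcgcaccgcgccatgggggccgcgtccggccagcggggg
Anpep: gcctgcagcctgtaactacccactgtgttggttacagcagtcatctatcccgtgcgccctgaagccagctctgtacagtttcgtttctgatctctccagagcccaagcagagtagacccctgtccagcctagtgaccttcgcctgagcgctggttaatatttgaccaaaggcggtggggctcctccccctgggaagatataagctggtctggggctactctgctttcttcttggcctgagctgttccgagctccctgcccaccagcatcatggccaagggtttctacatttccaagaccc
Mep1b: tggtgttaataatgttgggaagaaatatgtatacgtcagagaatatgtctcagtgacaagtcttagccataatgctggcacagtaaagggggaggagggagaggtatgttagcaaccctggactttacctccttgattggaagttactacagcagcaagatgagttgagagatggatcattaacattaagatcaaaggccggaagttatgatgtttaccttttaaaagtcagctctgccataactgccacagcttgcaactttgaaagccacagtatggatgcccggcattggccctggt
Dpp4: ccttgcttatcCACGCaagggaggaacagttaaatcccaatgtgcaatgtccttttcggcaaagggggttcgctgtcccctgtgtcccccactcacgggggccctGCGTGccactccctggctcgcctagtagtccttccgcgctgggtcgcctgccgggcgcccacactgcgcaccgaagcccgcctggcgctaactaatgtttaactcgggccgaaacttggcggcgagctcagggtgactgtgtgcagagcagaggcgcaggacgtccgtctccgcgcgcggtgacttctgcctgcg

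GCGTG occurred in the windows of Mme, Dpp4, Mep1a and Xpnpep2 and in 29.7% of all 33469 promoter windows of this length. The HNF4 sequence CAAAGTCCA and the antioxidant response element core TGACNNNGC, present in 0.391% and 12.1% of all windows, had no match in the windows of the 8 genes. None of the 3 motifs matched in the Ace, Anpep, Enpep or Mep1b window. The Ace window held 34 CG pairs, the Anpep window 7, the Mep1b window 3 and the Dpp4 window 27, against a median of 7 over all windows. A match is a run of letters only, and a missing match refers to these windows only.

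All 15 probes were called well above background by the scanner software on all 6 arrays, and 0 were saturated on any array. All 10 proximal tubule markers examined, among them the phosphate transporter gene Slc34a1 and the endocytic receptor genes Lrp2 and Cubn, were also well above background on every array. Over whole arrays the upper quartile (75th percentile) of processed intensity ran from 903 to 1191 on the corn oil arrays and 844 to 880 on the anthraquinone arrays, and 68.7 to 70.7% and 64.2 to 66.1% of probes were well above background. One slide carried 5 of the arrays, and the sixth array, corn oil replicate 1, was on another slide with another scan date. On the shared slide corn oil replicates 2 and 3 were in row 1 and all anthraquinone arrays in row 2. Treatment and row cannot be told apart on that slide. Corn oil replicate 1 was in row 2 of its own slide. Levels below are log2 processed intensity minus the 75th percentile of the array, here called the normalized level. Differences are anthraquinone minus corn oil on that scale, and levels of different probes are not compared, except that 2 within-array differences between probes are followed across the arrays.

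A probe of Ace fell, and 2 of the 3 Ace probes had the lowest differences of the 15. The means of Anpep, Mep1b and Mme were also lower, none past the test, and those of Enpep, Mep1a and Xpnpep2 were lower by smaller amounts. Dpp4 had differences near 0. Of the 15 probes 13 had a lower mean, against 49.2% of the 41310 probes tested. The groups did not overlap on 9 probes, all with anthraquinone lower, against 25.2% of all probes in either direction and 10.7% downward. In limma, with Benjamini-Hochberg adjustment over all 41310 probes, 1 of the 15 passed an adjusted p of 0.05, against 0.0339% of all probes (14 probes, 8 higher, 0.0194%, and 6 lower, 0.0145%). At an unadjusted limma p of 0.05 the count was 8 of 15, all of them lower, against 17.4% of all probes in either direction and 8.15% downward. These 8 were the probes of Ace, Anpep, Enpep and Mep1b, and on brightest probes the count was 4 of 8 genes. The 9 probes without overlap were those of the same genes and Xpnpep2. Probes of the same gene read the same RNA and are not independent. On the brightest probe of each gene, the median difference of the 8 genes was -0.40, and that of all 11825 named genes was 0.01. The difference was below 0 in 7 of the 8 genes and in 48.3% of the named genes. A difference under -0.5 was found in 4 of the 8 genes and in 4.11% of the named genes.

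**Figure D1:**
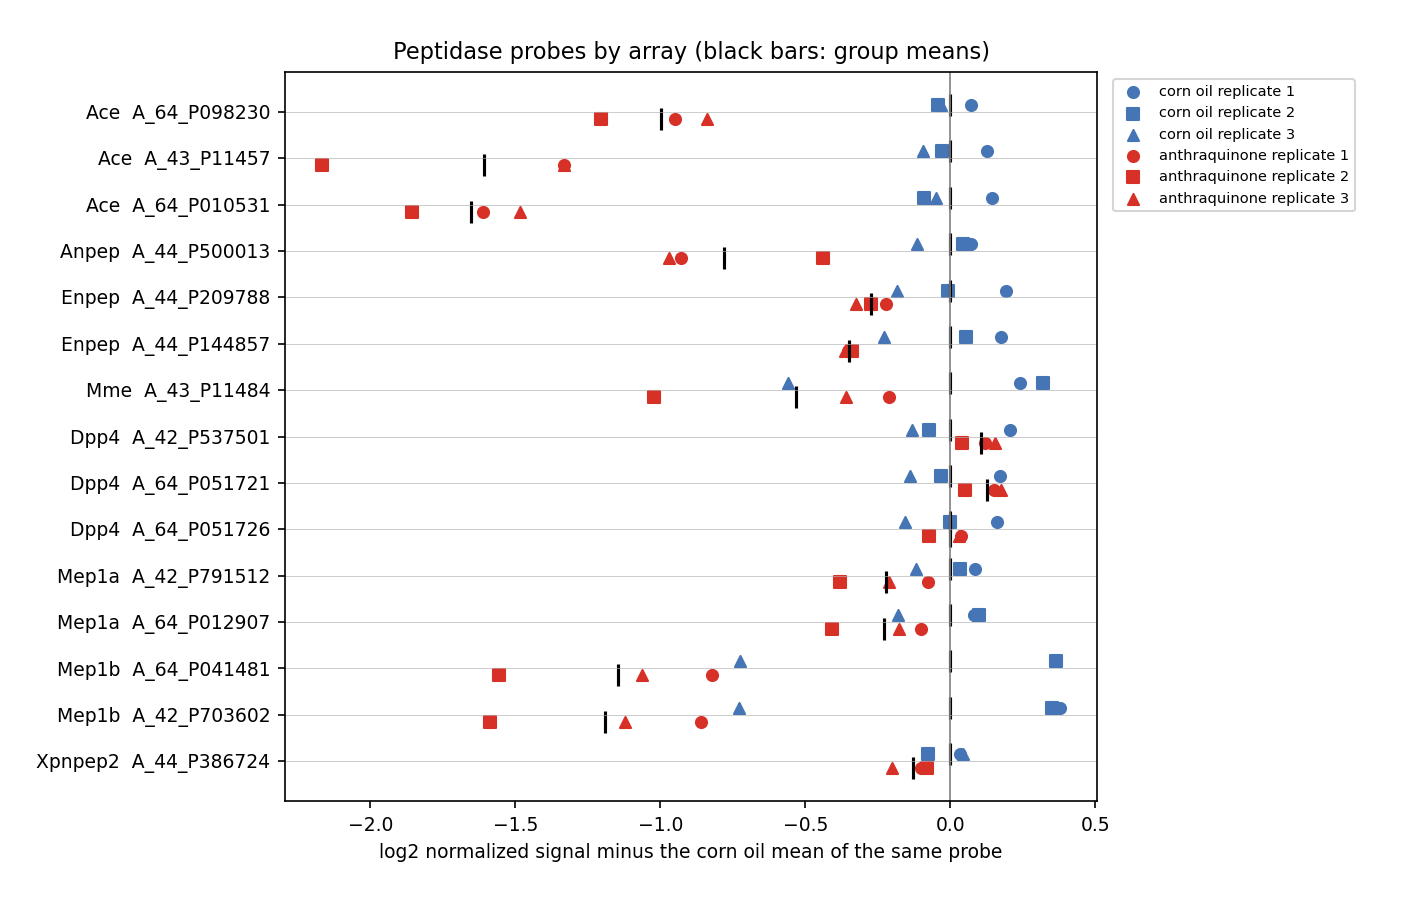
Normalized log2 level of each of the 15 peptidase probes on each of the 6 arrays, relative to the corn oil mean of the same probe (x axis, log2). Blue symbols are corn oil, red symbols anthraquinone, the symbol shape is the replicate number and black bars are group means. All 3 Ace probes and the Anpep probe separate the groups widely, while the Mme and Mep1b probes place corn oil replicate 3 near the anthraquinone arrays.

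Ace encodes angiotensin-converting enzyme, which makes angiotensin II from angiotensin I and degrades bradykinin. On probe A_64_P010531 the corn oil rats, in replicate order, had normalized levels of -2.74, -2.97 and -2.93. The anthraquinone rats, in the same order as used throughout, had -4.49, -4.74 and -4.37. Every anthraquinone value lay more than 1 log2 unit below every corn oil value. The probe fell by 1.65 on the log2 scale, a 3.14-fold difference, from a corn oil mean of -2.88 ± 0.13 to an anthraquinone mean of -4.53 ± 0.19 (SD, n = 3 each). The limma adjusted p was 0.0401. This probe was 1 of the 6 among the 41310 that passed downward.

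The other Ace probes showed the same direction without passing the test over all probes. On the brightest, A_64_P098230, the levels were -0.52, -0.63 and -0.62 with corn oil and -1.54, -1.79 and -1.43 with anthraquinone. Its difference was -0.998 ± 0.111 (SE, limma adjusted p = 0.0859), or 2.00-fold. On A_43_P11457 the levels were -2.31, -2.46 and -2.53 with corn oil and -3.76, -4.60 and -3.76 with anthraquinone, with a difference of -1.61 ± 0.24 (SE, limma adjusted p = 0.117). The groups did not overlap on either probe, and anthraquinone replicate 2 was the lowest array on all 3. The mean over the 3 probes differed by -1.42 ± 0.15 (SE, limma adjusted p = 0.0859).

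On A_64_P010531 the processed intensity was 179, 115 and 125 with corn oil and 39.1, 32.4 and 40.9 with anthraquinone. The lowest intensity that the software called well above background was 13.8 to 21.2 on the corn oil arrays and 18.7 to 23.0 on the anthraquinone arrays. Another setting replaced the processed signal by the median spot signal and applied the normexp correction with an offset of 50, so the spot statistic and the background correction changed together. The offset of 50 exceeded the processed intensity of A_64_P010531 on every anthraquinone array, and a constant added to dim signals shrinks their log2 differences. With this setting, A_64_P010531 differed by -0.76 (limma adjusted p = 0.0354), A_43_P11457 by -0.89 and A_64_P098230 by -0.85 (limma adjusted p = 0.0874 and 0.0507). The call on A_64_P010531 did not hold when any of the 6 arrays was left out. The difference then lay between -1.74 and -1.55 and the limma adjusted p between 0.0674 without anthraquinone replicate 3 and 0.171 without corn oil replicate 1.

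**Figure D2:**
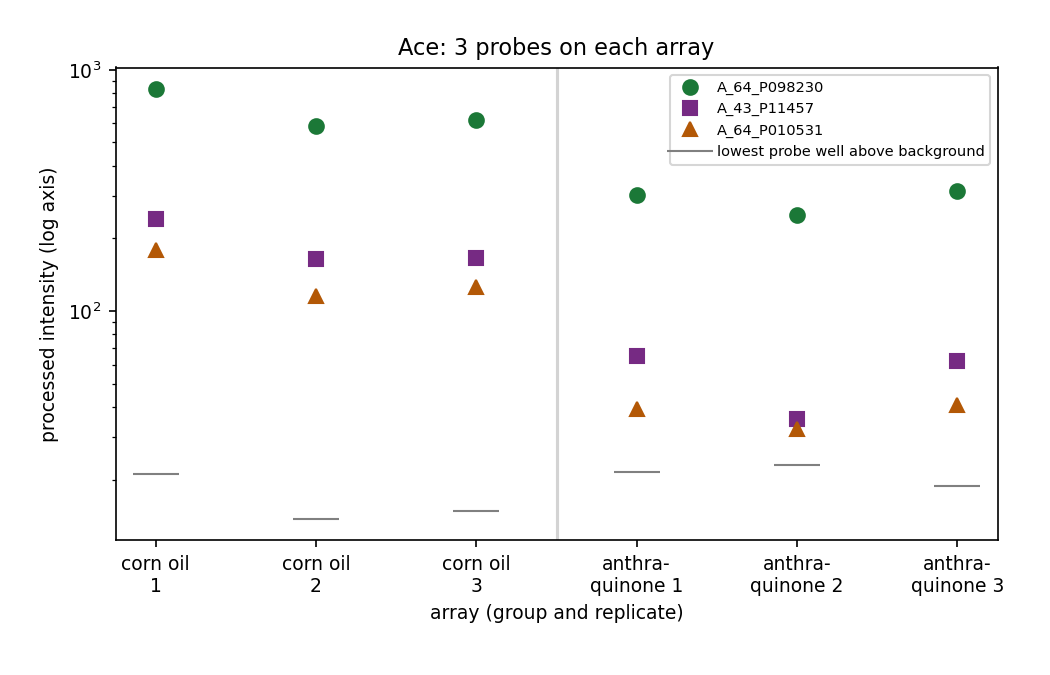
Processed intensity of the 3 Ace probes (log axis) on each array. Grey bars mark the lowest intensity that the scanner software called well above background on that array. Each probe is dimmer on all 3 anthraquinone arrays than on the corn oil arrays, and A_64_P010531 there lies between 32.4 and 40.9.

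Other genes that act on angiotensins and kinins did not pass the test. Enpep encodes aminopeptidase A, which removes the acidic first residue of angiotensin II. Its brighter probe, A_44_P209788, read 4.62, 4.42 and 4.24 with corn oil and 4.20, 4.15 and 4.10 with anthraquinone. The lowest corn oil array lay just above the highest anthraquinone array. The difference was -0.27 ± 0.11 (SE, limma adjusted p = 0.281), and the dimmer probe A_44_P144857 gave -0.35 ± 0.11 (limma adjusted p = 0.226).

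Anpep encodes aminopeptidase N, a broad aminopeptidase that removes neutral residues and also trims angiotensin III. Its probe A_44_P500013 read 4.88, 4.86 and 4.70 with corn oil and 3.88, 4.37 and 3.84 with anthraquinone. The groups did not overlap, and anthraquinone replicate 2 lay closest to corn oil. The difference was -0.78 ± 0.16 (SE, 95% interval -1.16 to -0.40, limma adjusted p = 0.171), or 1.72-fold. It lay between -0.95 and -0.69 when each array was left out, without anthraquinone replicate 2 and 3 respectively.

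Xpnpep2 encodes a membrane-bound aminopeptidase P, which cuts before proline and degrades bradykinin. Its probe A_44_P386724 read 1.503, 1.393 and 1.513 with corn oil and 1.367, 1.390 and 1.269 with anthraquinone. Corn oil replicate 2 and anthraquinone replicate 2 were nearly equal, so the groups were separated by a narrow margin. The difference was -0.13 ± 0.08 (SE, 95% interval -0.31 to 0.06, limma adjusted p = 0.427).

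Mme encodes neprilysin, which degrades natriuretic peptides, kinins and enkephalins. Its probe A_43_P11484 read 3.918, 3.997 and 3.116 with corn oil and 3.464, 2.656 and 3.317 with anthraquinone. Corn oil replicate 3 was below anthraquinone replicates 1 and 3, so the groups overlapped. The difference was -0.53 ± 0.31 (SE, 95% interval -1.28 to 0.22, limma adjusted p = 0.419). Leaving out corn oil replicate 3 gave -0.81, and leaving out anthraquinone replicate 2 gave -0.29.

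Mep1a and Mep1b encode the alpha and beta subunits of meprin, an astacin-type metalloprotease abundant in the brush border of rodent kidney. Mep1b probe A_64_P041481 read 5.39, 5.39 and 4.30 with corn oil and 4.21, 3.47 and 3.97 with anthraquinone. Corn oil replicates 1 and 2 were high, while corn oil replicate 3 lay 1.09 below them and just above anthraquinone replicate 1. The difference was -1.15 ± 0.35 (SE, 95% interval -1.99 to -0.31, limma adjusted p = 0.212), or 2.21-fold, and it was -1.51 with corn oil replicate 3 left out and -0.94 with anthraquinone replicate 2 left out. Probe A_42_P703602 gave -1.19 ± 0.35 (SE, limma adjusted p = 0.207). After each Mep1b probe was centred on its own mean, the pair differed by at most 0.04 on any array, so both probes reported the same pattern over the animals.

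Mep1a probe A_42_P791512 read 4.03, 3.97 and 3.83 with corn oil and 3.87, 3.56 and 3.73 with anthraquinone. The groups overlapped, since anthraquinone replicate 1 exceeded corn oil replicate 3. The difference was -0.22 ± 0.11 (SE, 95% interval -0.48 to 0.03, limma adjusted p = 0.338), and A_64_P012907 gave -0.23 ± 0.12. The within-array difference of Mep1b over Mep1a was 1.36, 1.42 and 0.48 with corn oil and 0.34, -0.09 and 0.24 with anthraquinone. The groups of differences did not overlap and their means differed by -0.92 (2-sided exact permutation p = 0.10, the smallest that 3 against 3 arrays allow).

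That comparison was 1 of 3 between related peptidases, all chosen after the values were seen, of which 2 are given. Anpep minus Enpep differed between the groups by -0.51. Both separated the groups, and both had an exact permutation p of 0.10 before and after adjustment over the 3.

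Dpp4 encodes dipeptidyl peptidase IV, which removes dipeptides that end in proline or alanine and inactivates incretin hormones. Its brightest probe, A_42_P537501, read 6.22, 5.95 and 5.89 with corn oil and 6.14, 6.06 and 6.17 with anthraquinone. Corn oil replicate 1 was the highest array and corn oil replicate 3 the lowest, so the anthraquinone values lay within the corn oil range. The difference was 0.10 ± 0.11 (SE, 95% interval -0.16 to 0.37, limma adjusted p = 0.651), and it was -0.04 after quantile normalization. A_64_P051721 gave 0.13 ± 0.10 (-0.01 after quantile normalization) and A_64_P051726 gave 0.00 ± 0.10. The interval of the brightest probe leaves out a decrease of the size seen on any Ace probe.

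**Figure D3:**
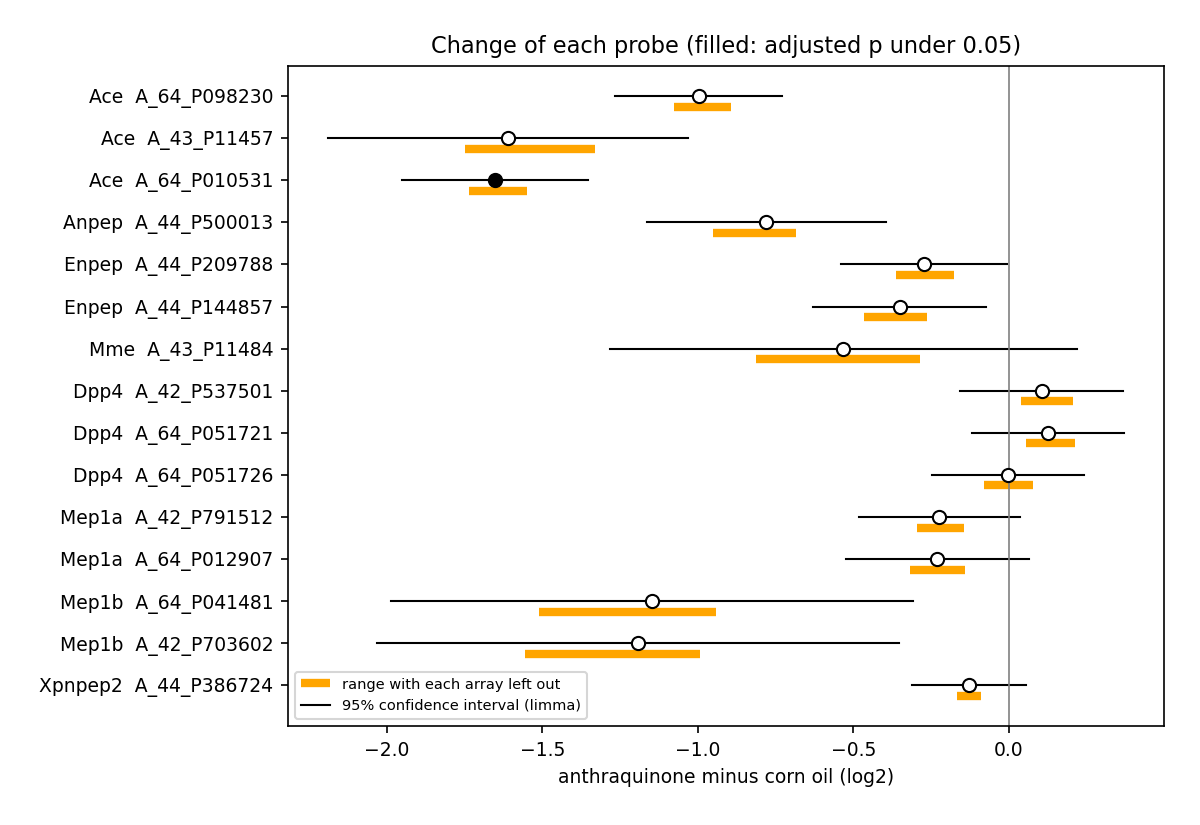
Difference between anthraquinone and corn oil (x axis, log2) for each of the 15 probes. Circles are limma estimates, filled where the adjusted p is under 0.05, black lines are 95% confidence intervals, and orange bars are the range of estimates with each array left out. The 1 filled circle is Ace probe A_64_P010531, and the Dpp4 circles lie between 0.00 and 0.13.

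By distance between the 6 values after each gene was centred on its mean, the genes nearest to Mep1b among the 11825 named genes, which were selected by that distance, were Ppic (distance 0.28 log2), B3galt5 (0.36), Sspo (0.43), St6gal1 (0.44) and Slco1a1 (0.46). None of these 5 passed the test, with limma adjusted p between 0.176 and 0.243. The genes nearest to Ace, listed after its values were seen, were Flrt1 (0.31), Heyl (0.34), Gabrp (0.34), Slc52a3 (0.35) and Atp12a (0.36), also none past the test.

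Other surface peptidases and hydrolases of the proximal tubule had differences closer to 0 than Ace. Of 12 listed genes 11 were tested, and 0 passed in limma in either direction, also 0 at an unadjusted p of 0.05. The largest values were those of Naaladl1 (-0.38) and Folh1 (-0.21). Ggt1, encoding the glutathione-cleaving gamma-glutamyltransferase, had a difference of -0.10 and Dpep1, encoding a renal dipeptidase, 0.09. Among 17 tested of 21 listed peptidases of the cytosol, lysosome and other tissues, 0 passed, and 1 was under an unadjusted limma p of 0.05. That 1 was Prep, encoding the cytosolic prolyl oligopeptidase, with levels of 5.17, 4.78 and 3.55 with corn oil and 3.26, 2.87 and 2.92 with anthraquinone. Its difference was -1.48 ± 0.41 (SE, limma adjusted p = 0.200), and Cndp1, encoding a carnosine-cleaving dipeptidase, had -0.68.

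Among renin-angiotensin and kinin components, 8 of 11 listed were tested and 0 passed, with 1 under an unadjusted limma p of 0.05. The largest values were those of Agt, encoding angiotensinogen (-0.96 ± 0.43, SE, limma adjusted p = 0.320), and Bdkrb1, encoding a bradykinin receptor (-0.53 ± 0.12, limma adjusted p = 0.183). The Bdkrb1 probe was dim, with processed intensity of 43.0 to 55.1 in corn oil and 27.7 to 31.3 in anthraquinone. The angiotensin receptor gene Agtr1a had a difference of -0.20. Of 7 tested carriers that take up the released amino acids and small peptides (8 listed), 0 passed and 2 were under an unadjusted limma p of 0.05. These were the peptide transporter gene Slc15a2 (-0.999 ± 0.204) and the amino acid transporter gene Slc6a18 (-0.48 ± 0.13). Slc15a1, encoding the other peptide transporter of this family, had 0.19.

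Genes of the microvillus scaffold had small differences. Of 14 listed symbols 10 were tested and 0 passed in limma, also 0 at an unadjusted p of 0.05, with the largest values for the myosin gene Myo7b (-0.26) and the plectin gene Plec (0.19). Villin (Vil1) and ezrin (Ezr), core proteins of microvilli, had -0.06 and -0.07. Of 8 transcription factor genes 0 passed and 4 were under an unadjusted limma p of 0.05, with the largest values for Cebpb (0.82) and Cdx2 (-0.55). The Cdx2 probe was dim, well above background on 5 of the 6 arrays. Hnf4a, encoding a nuclear receptor of the proximal tubule, had -0.33 ± 0.14 (SE).

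Marker genes of the cells that carry these peptidases were set beside the results, and their part in the results was not tested. The summed level, here the sum of processed intensities each divided by the 75th percentile of its array, was 1583 to 1779 in corn oil and 1667 to 1909 in anthraquinone over 10 proximal tubule markers. Of these 8 had a positive and 2 a negative difference, with Slc5a12 (0.49) and Slc4a4 (0.25) the largest. Over 8 endothelial markers, relevant to Ace, the sum was 84.6 to 102 and 87.8 to 101, with 3 of 8 differences negative and Tek (0.25) and Eng (-0.17) the largest. Over 6 podocyte markers, relevant to Mme, it was 34.6 to 36.3 and 32.3 to 34.6, with 5 of 6 negative, among them Nphs1 (-0.16). Over 5 T lymphocyte markers, relevant to Dpp4, it was 1.29 to 1.64 and 1.40 to 1.95, with 1 of 5 negative, and a sixth marker, Cd3e, was not well above background on all arrays of either group. The largest of these were Cd3g (0.38 ± 0.24, SE) and Cd2 (-0.26 ± 0.42), the latter on a dim probe with processed intensity of 19.7 to 56.2. Over 7 macrophage and myeloid markers, relevant to Anpep, it was 87.7 to 104.4 and 70.3 to 90.5, with 5 of 7 negative. The largest were Itgam (-0.56 ± 0.64, SE) and Lyz2 (-0.28 ± 0.13). The Itgam probe was dim, well above background on 4 of the 6 arrays. In these 5 lists 0 genes passed in limma, and 1, 0, 1, 0 and 1 were under an unadjusted p of 0.05. Each sum is weighted toward the brightest probes of its list, such as that of Lyz2 among the myeloid markers.

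Of 7 markers of the straight part of the proximal tubule 5 had a negative difference, 0 passed and 2 were under an unadjusted limma p of 0.05. The summed level was 341 to 427 in corn oil and 361 to 392 in anthraquinone. That sum rested mostly on Acy3, which had the brightest probe of the list and a difference of 0.23. The largest differences were those of Slco1a1 (-1.30), an organic anion transporter gene, and Slc7a13 (-1.16), an amino acid transporter gene. Slc7a13 read 6.84, 6.90 and 5.51 in corn oil, so that corn oil replicate 3 was again the low control, and 6.04, 4.56 and 5.17 in anthraquinone. Over 4 tested thick ascending limb markers all differences were negative, led by Cldn16 (-0.40) and Kcnj1 (-0.33). Over 6 principal cell markers 5 were negative, led by Scnn1b (-0.72) and Hsd11b2 (-0.49). In both lists 0 passed in limma, with 1 and 4 under an unadjusted p of 0.05. The part of these markers in the peptidase results was not tested.

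**Figure D4:**
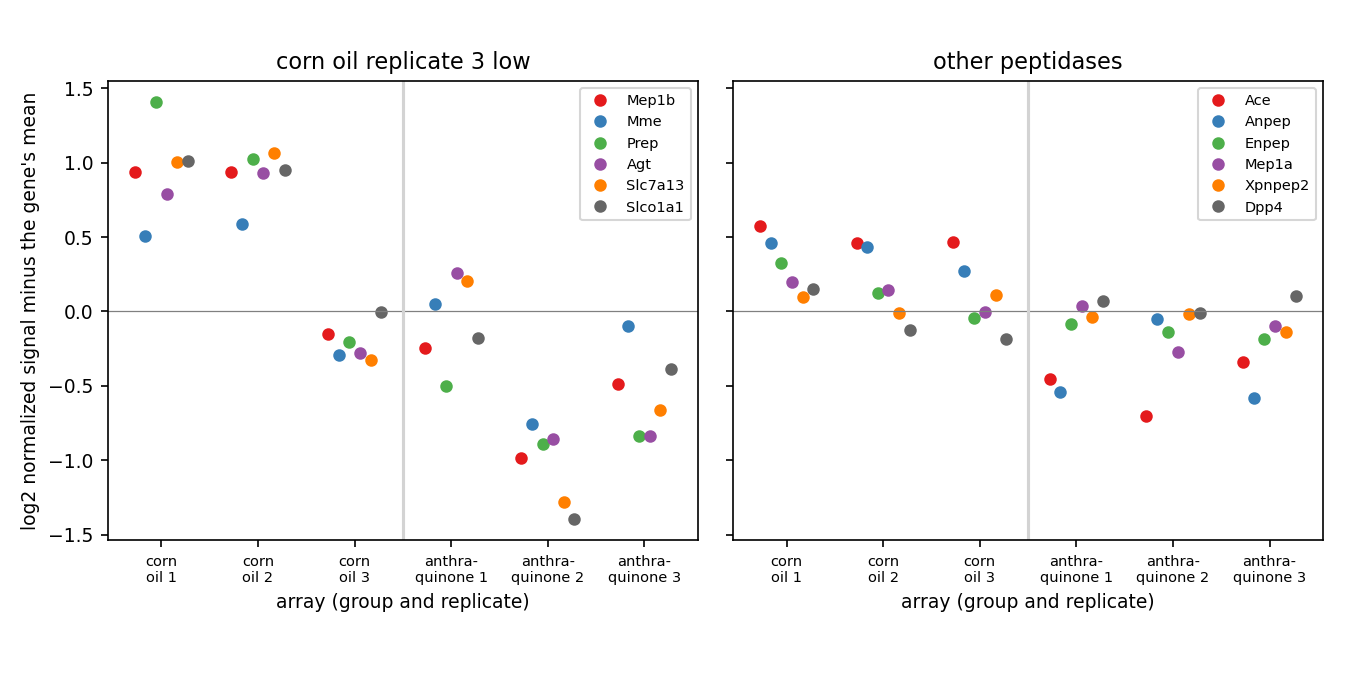
Normalized log2 level on each array minus the gene's mean over the 6 arrays (y axis), brightest probe of each gene. The left panel shows Mep1b and Mme with other genes in which corn oil replicate 3 lay at least 0.80 below the other corn oil arrays, picked after their values were seen, and the right panel shows the remaining peptidases. In the left panel corn oil replicate 3 lies nearer to an anthraquinone array than to the other corn oil arrays, while for Ace all corn oil arrays lie together above them.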

How the data were processed

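The deposited scanner files hold linear spot intensity from the scanner software Feature Extraction (Agilent), version 10.7.1.1 in the headers and 10.7 per the submitters' processing notes. Per the file headers, the processed intensity was corrected for background and spatial trend before deposit, and the array was designed on rat build rn4. Between 2 and 13 outlier spots per array were left out. A probe was tested where the software called it well above background throughout 1 group or both, which left 41310. Accessions were named through the RefSeq table of GRCr8, used for names and promoter windows only, which named 27447 of 61657 probes. The comparison used limma 3.58.1 under R 4.3.3 (lmFit, then eBayes), with no covariate. P-values rest on the spread between 3 animals per group, which eBayes shrinks toward a value estimated over all probes tested. They depend on that set of probes too, and the small number of animals limits the precision. Members and lists were chosen with earlier results of these data known. The genes named were the 8 members, and from each list those past the threshold and the 2 with the largest difference. The 5 nearest genes were named for the member with the largest difference on its brightest probe, Mep1b. Named beside them, chosen for their role or after their values were seen, were Ggt1, Dpep1, Agtr1a, Slc15a1, Vil1, Ezr, Hnf4a and the genes nearest to Ace. The simulated test recovered 10% of 50 probes changed by 0.5 log2, 60% at 1, 84% at 2 and 100% at 3, over 41291 probes, with 7 of 134 calls false. The simulation drew independent normal noise for each probe and array, with the spread of that probe within groups. It held no deviations shared between probes and no slide effect, so its rates need not hold for the real arrays. The authors' deposited value table of intensity was the processed intensity divided by the 75th percentile (90.7 to 97.0% of probes within 0.01 log2 of 1 constant per array). It is linear and not centred, so scale, centring and direction are known, with column medians of 0.109, 0.113 and 0.114 (corn oil) and 0.109, 0.111 and 0.110 (anthraquinone). Alternatives changed the scaling, background correction, filter, probe summary, variance model, array weights, blocks, threshold and each array. The normexp correction used median spot signals, and mean spot signals were not used here. Results for some listed genes are not reported here.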

Additional observations from a re-analysis of the deposited data

How the results depend on the processing

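The 14 probes past the test became 31 with the normexp correction of median spot signals, 8386 without the filter on dim probes, 9 with the brightest probe per gene, 112 with an intensity trend and robust variance, 2 with the slide as a block and 78 at an adjusted p of 0.10, and 1 to 26 with each array left out. The split of 8 higher and 6 lower became 8 and 3 with median scaling, 18 and 13 with normexp, 7637 and 749 without the filter, 5 and 7 with the mean of probes per gene, 67 and 45 with the trend, 31 and 47 at 0.10 and 9 and 17 when corn oil replicate 3 was absent. The 1 peptidase probe past the test became 4 without the filter and 2 with the trend or at 0.10, all lower, and 0 with the brightest probe or the mean of probes per gene and with the slide as a block. It was also 0 without any single array (range 0 to 0). The block for the slide is the same fit as leaving out corn oil replicate 1. The median of the 8 genes ranged from -0.59 to -0.28 with each array left out, the lower end when corn oil replicate 3 was absent. Direction changed only on Dpp4 probes, among the 15 probes and the settings run. A_42_P537501 and A_64_P051721 were -0.0393 and -0.0148 after quantile normalization, and A_64_P051726 was 0.0265 with median scaling and 0.0770 with the slide as a block. Leaving out each array gave it -0.0809 (corn oil replicate 3) to 0.0770 (corn oil replicate 1). With the replicate block 1 probe passed, and 0 peptidase probes. Deviations of same-numbered arrays correlated at 0.04, -0.06 and -0.01, and 1 of 3 numbers correlated best with its own, so the numbers do not pair the arrays. The cause of these shifts was not tested. Both within-array differences given, added after seeing the data, kept their sign in the settings run. Settings that only rescale each array by a constant or filter probes cannot change such a difference, so they do not test it. With quantile normalization, normexp or an array left out, Mep1b minus Mep1a lay between -1.23 and -0.76. Anpep minus Enpep lay between -0.68 and -0.41 in the same settings. Sizes on the dimmer Ace probes, whose signal was low, depended on the setting. A_64_P010531 differed by -1.65 in the main fit and by -0.76 with the normexp correction of median spot signals. The offset of 50 by itself shrinks log2 differences of dim probes, and any further part of low signal in these sizes was not tested.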

Other observations

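Corn oil replicate 3 stood apart from the other controls in a group of genes that were picked for this after their values were seen. It lay 1.09 below the lower of the other corn oil arrays for Mep1b and 0.80 below for Mme. The same gap was -1.23 for Prep, -1.07 for the angiotensinogen gene Agt, -1.33 for Slc7a13 and -0.95 for Slco1a1. Among the remaining peptidase genes the gap was between -0.17 (Enpep) and 0.12 (Xpnpep2). Of 11825 named genes, 267 lay more than 0.5 below both other controls in corn oil replicate 3, against 194 in replicate 1 and 162 in replicate 2.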
